A study of Sus scrofa with 9 samples.

Results

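The glucocorticoid receptor and its target genes were described here in porcine hearts donated after circulatory death (DCD). The members were chosen by symbol, as the receptor NR3C1, the related receptor NR3C2, the enzyme HSD11B1 and the targets SGK1, FKBP5, TSC22D3, ZBTB16 and ERRFI1. Of these 8 symbols, 6 matched a row among the 25149 genes listed, 5 were above 0 in every heart and HSD11B1 was listed at 0 throughout. NR3C2 and ERRFI1 were not analysed here.

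RNA came from 9 hearts of American Yorkshire pigs aged 4 to 6 months, 1 heart per pig, in 3 groups of 3. Every heart had 15 min of asystolic warm ischemia in the donor and, after storage, 2 h of normothermic machine perfusion (NMP) on a blood-primed circuit, at the end of which the apex was biopsied. Group 1 (NRP + HOPE 24 h, pigs 27, 28 and 30) had 60 min of normothermic regional perfusion (NRP, warm blood circulated through the organs inside the donor) and then 24 h of hypothermic oxygenated perfusion (HOPE) at 8 °C. Group 2 (NRP + SCS 2 h, pigs 24, 25 and 29) had the same 60 min of NRP and then 2 h of static cold storage (SCS) at 4 °C, while in Group 3, given No NRP + HOPE 2 h, pigs 31, 33 and 34 went without NRP and their hearts had 2 h of HOPE at 8 °C. Between Groups 1 and 2 the method, duration and temperature of storage changed together, between Groups 3 and 2 NRP, method and temperature did, and between Groups 1 and 3 NRP and duration did, so that these cannot be told apart. No heart was sampled before warm ischemia or without NMP, and steroid concentrations were not analysed here. A commercial supplement was added to the cardioplegia and to the HOPE perfusate. Its contents are not given in the sources used here, and whether it holds a steroid was not settled.

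Cortisol enters cells and binds the glucocorticoid receptor, which waits in the cytoplasm in a complex with heat shock proteins and cochaperones. The bound receptor moves to the nucleus, where it switches on genes that dampen inflammation and adjust metabolism and holds back inflammatory genes driven by NF-kB and AP-1. In heart muscle, which makes little of the enzyme that inactivates cortisol, cortisol can also occupy the mineralocorticoid receptor encoded by NR3C2. The targets described here are induced within hours of receptor activation in many tissues, but several also respond to other signals, such as cell stress and serum.

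Levels are given as TPM, a unit in which reads are divided by the length of the gene and every heart adds up to 1000000, so that genes can be compared with each other. SGK1 was the most abundant member with a median of 151 TPM over the 9 hearts, followed by TSC22D3 with 93.6, FKBP5 with 52.5, NR3C1 with 10.4 and ZBTB16 with 8.61 TPM. SGK1 exceeded TSC22D3 in 8 of 9 hearts, TSC22D3 exceeded FKBP5 in 9 of 9, and FKBP5 exceeded ZBTB16 in 9 of 9. ZBTB16 exceeded NR3C1 in 5 of 9 hearts, and these neighbours were not separated by their spread. By mean level SGK1 stood above 96.2% of the 11782 genes tested and NR3C1 above 62.7%. The tissue is labelled as cardiomyocytes, but the biopsies are whole myocardium. Of 10 cardiomyocyte markers 7 were listed, with a summed level of 22996 to 44150 TPM, and 4 fibroblast markers summed to 390 to 655 TPM. In such bulk tissue, fewer cells of a type and less RNA per cell cannot be told apart.

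NR3C1 (ENSSSCG00000014401) encodes the glucocorticoid receptor itself. Its level was 7.57, 14.9 and 17.6 TPM in Group 1 (pigs 27, 28 and 30), 11.3, 9.68 and 9.06 TPM in Group 2 (pigs 24, 25 and 29), and 5.94, 10.4 and 13.3 TPM in Group 3 (pigs 31, 33 and 34). Group 2 was narrow and lay inside the range of both other groups, each of which held a low heart, pig 27 or pig 31. The means were 13.3 ± 5.17, 10.0 ± 1.15 and 9.89 ± 3.73 TPM (SD, n = 3 each) in Groups 1, 2 and 3. On the log2(TPM + 1) scale, the difference between Groups 1 and 2 was 0.31 (95% interval -0.47 to 1.09), between Groups 3 and 2 it was -0.07 (-0.86 to 0.71), and between Groups 1 and 3 it was 0.38 (-0.40 to 1.17). Leaving out 1 heart at a time, Group 1 lay 0.09 to 0.64 above Group 2 and 0.09 to 0.72 above Group 3. The intervals leave room for differences of up to about 1 log2 unit in Group 1, so equal receptor mRNA was not shown.

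HSD11B1 (ENSSSCG00000015616) encodes the dehydrogenase that regenerates cortisol from inactive cortisone inside cells. It was listed at 0 TPM in 9 of 9 hearts. The reverse enzyme, HSD11B2, was listed at 0 in every heart except pig 27, with 0.0794 TPM. No fold was computed for either gene, and without read counts a limit of detection cannot be stated.

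**Figure D1:**
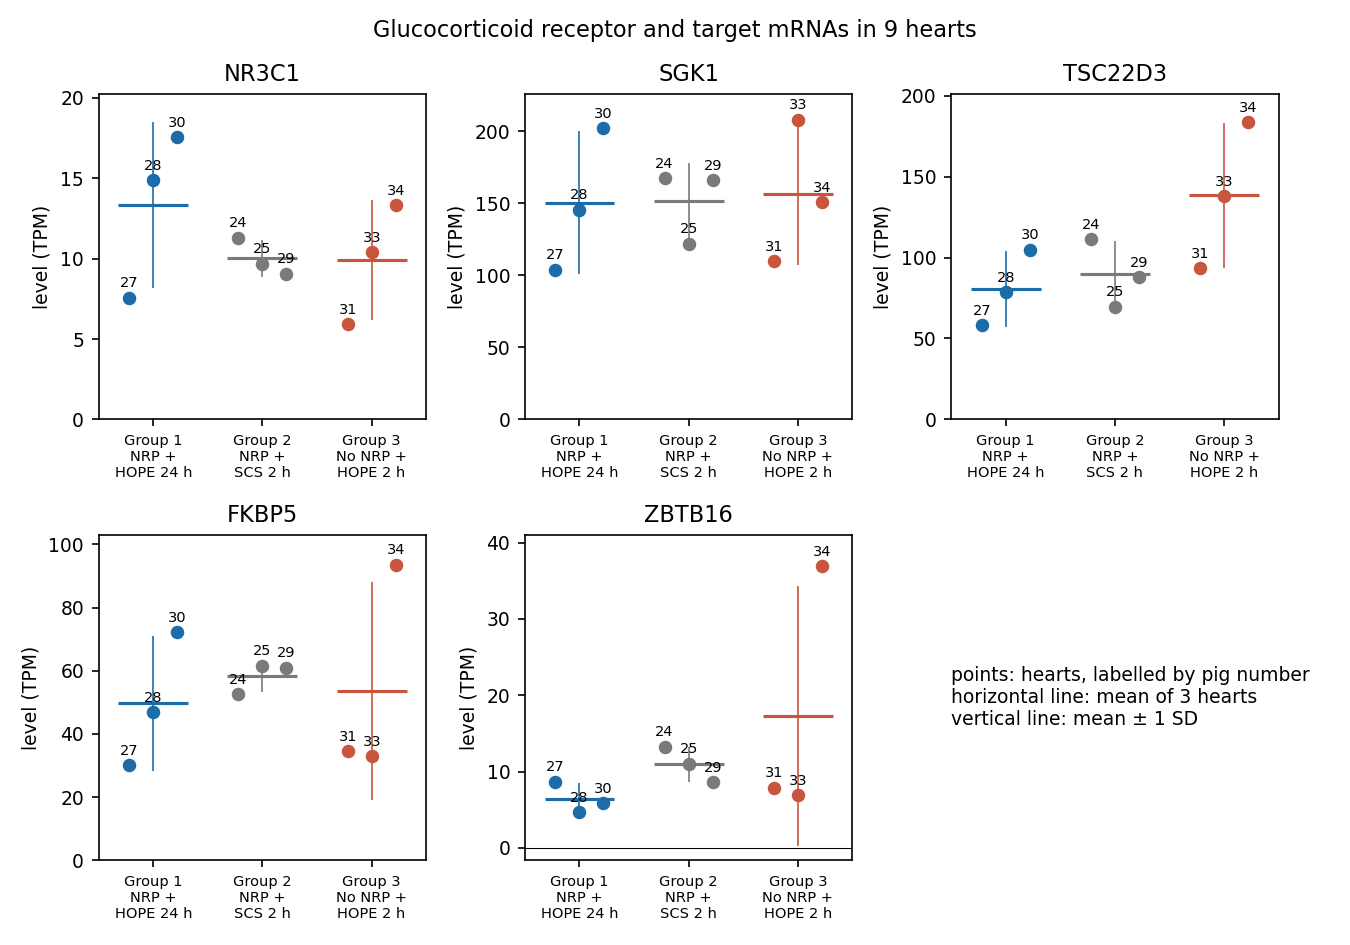
Level of each measured member in TPM (vertical axes, from 0) in every heart, by group (horizontal axes). Points are hearts labelled by pig number, horizontal lines are means of 3 hearts and vertical lines ± 1 SD. In each panel the groups overlap, and pig 34 is the highest heart for TSC22D3, FKBP5 and ZBTB16.

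SGK1 (ENSSSCG00000021443) encodes a serum- and glucocorticoid-regulated kinase that promotes sodium transport and cell survival, and is a target of both corticosteroid receptors. It measured 104, 145 and 202 TPM in Group 1, 167, 122 and 166 TPM in Group 2, and 110, 208 and 151 TPM in Group 3. Groups 1 and 3 spanned nearly the same range, and the narrower Group 2 lay inside both. Group means differed little, at 150 ± 49.4, 152 ± 25.9 and 156 ± 49.4 TPM (SD, n = 3 each), and group membership held 0.575% of the variance over hearts against a median of 21.8% for all genes tested. The log2 differences were -0.05 (95% interval -0.72 to 0.62) for Group 1 over Group 2, 0.01 (-0.66 to 0.68) for Group 3 over Group 2 and -0.06 (-0.73 to 0.62) for Group 1 over Group 3. With a coefficient of variation of 24.4% over the 9 hearts, SGK1 was the steadiest member, where the median gene had 36.0%.

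FKBP5 (ENSSSCG00000001549) encodes a cochaperone of the receptor complex that lowers the receptor's affinity for cortisol and so forms a short feedback loop. Its levels were 30.0, 46.8 and 72.3 TPM in Group 1, 52.5, 61.5 and 60.9 TPM in Group 2, and 34.5, 32.9 and 93.5 TPM in Group 3. Group 3 was split, with pig 34 the highest of all 9 hearts and pigs 31 and 33 among the lowest. The means were 49.7 ± 21.3, 58.3 ± 5.02 and 53.6 ± 34.6 TPM (SD, n = 3 each). The log2 differences were -0.31 (95% interval -1.18 to 0.56), -0.29 (-1.16 to 0.58) and -0.02 (-0.89 to 0.85) for Groups 1 over 2, 3 over 2 and 1 over 3. Without pig 34, the difference between Groups 3 and 2 was -0.77 (limma, unadjusted p = 0.0533, adjusted p = 0.701). Leaving out 1 heart at a time, it ranged from that value to -0.03, without pig 33.

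TSC22D3 (ENSSSCG00000030241) encodes GILZ, a leucine zipper protein that binds NF-kB and AP-1 and carries part of the anti-inflammatory action of glucocorticoids. It measured 58.1, 78.6 and 105 TPM in Group 1, 111, 69.6 and 87.9 TPM in Group 2, and 93.6, 138 and 184 TPM in Group 3. Pigs 33 and 34 of Group 3 were the 2 highest of the 9 hearts, but pig 31 lay inside the range of both other groups. The means were 80.6 ± 23.5 in Group 1, 89.6 ± 20.9 in Group 2 and 138 ± 45.0 TPM in Group 3 (SD, n = 3 each). Group 3 was higher than Group 2 by 0.60 log2 units (95% interval -0.09 to 1.28, limma, unadjusted p = 0.0852, adjusted p = 0.749), and Group 1 lay at -0.76 relative to Group 3 (-1.45 to -0.07, unadjusted p = 0.0328, adjusted p = 0.795). Groups 1 and 2 differed by -0.17 (-0.86 to 0.52). Group membership held 47.9% of the variance of TSC22D3, the largest share among the members, and an exact permutation test over the 3 groups gave p = 0.139. The difference between Groups 1 and 3 was smaller without pig 34, at -0.53 (unadjusted p = 0.152), and without pig 27, at -0.55 (0.125). It was about as large as with all hearts without pig 28, at -0.76 (0.0625), and without pig 33, at -0.74 (0.0717). Without pig 31 it was -1.01 (unadjusted p = 0.00936, adjusted p = 0.356), and Group 3 lay 0.85 above Group 2 (unadjusted p = 0.0244, adjusted p = 0.598). Leaving out 1 heart at a time, Group 3 lay from 0.37, without pig 34, to 0.85 above Group 2. Macrophage, lymphocyte and endothelial markers were highest in pig 34, the heart with the most TSC22D3. The neutrophil markers listed summed to 0 TPM in that heart. Fibroblast markers were highest in pig 31, smooth muscle markers in pig 33, and cardiomyocyte and erythroid markers in pig 30. The 4 macrophage markers listed summed to 208 TPM in pig 34 and to between 54.9 and 175 TPM in Groups 1 and 2, the 3 lymphocyte markers summed to 13.4 TPM against 1.45 to 6.33 TPM in Group 1 and 1.83 to 5.94 TPM in Group 2, and their part in the result was not tested. Fibroblast markers were also highest in Group 3, with sums of 526 to 655 TPM against 423 to 560 TPM in Group 1 and 390 to 507 TPM in Group 2. The 4 smooth muscle markers, of which MYH11 was listed at 0, summed to 415 to 466 TPM in Group 3, 214 to 387 TPM in Group 1 and 294 to 438 TPM in Group 2, and the erythroid markers, 2 of 4 listed, to 222 to 372, 73.9 to 425 and 71.4 to 133 TPM in Groups 3, 1 and 2, so that Groups 3 and 2 did not overlap. The part of these markers in the result was not tested either.

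ZBTB16 (ENSSSCG00000030095) encodes PLZF, a zinc finger transcription factor that is among the most strongly glucocorticoid-induced genes in several human tissues. It measured 8.67, 4.69 and 5.84 TPM in Group 1, 13.2, 11.04 and 8.61 TPM in Group 2, and 7.88, 6.92 and 36.9 TPM in Group 3. Pig 34 stood 2.79-fold above the next heart, while the other 2 hearts of Group 3 lay below all of Group 2. Group 1 had the lowest mean, 6.40 ± 2.05 TPM, against 10.96 ± 2.31 in Group 2 and 17.2 ± 17.0 TPM in Group 3 (SD, n = 3 each). The log2 differences were -0.71 (95% interval -1.78 to 0.36), 0.23 (-0.84 to 1.30) and -0.94 (-2.01 to 0.13, limma, unadjusted p = 0.0796, adjusted p = 0.857) for Groups 1 over 2, 3 over 2 and 1 over 3. Pig 34 decided both values with Group 3. Without it, Group 3 lay at -0.49 relative to Group 2, Group 1 at -0.22 relative to Group 3, and the difference between Groups 1 and 2, unchanged in size at -0.71, had an unadjusted p of 0.0437 (adjusted p = 0.897). With a coefficient of variation of 85.5%, ZBTB16 varied more than 93.0% of the genes tested.

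All 5 members above 0 passed the filter on low values, at least 1 TPM in at least 3 hearts, in every heart. At an adjusted p under 0.05, 0 of 5 members were called between Groups 1 and 2, where 0.0255% of all genes tested were called. Between Groups 3 and 2 it was 0 of 5 against 0.0509% of all genes, between Groups 1 and 3 0 of 5 against 0.0509%, and over the 3 groups together 0 of 5 against 0.102%. So few genes of any kind were called that a count of 0 says little about the members. At an unadjusted limma p under 0.05, 0 of 5 members passed between Groups 1 and 2, where 4.97% of all genes did (1.82% higher and 3.14% lower in Group 1, 215 and 370 genes). After median-of-ratios scaling, which sets the median gene equal between hearts, these genes numbered 547 higher and 459 lower. Without pig 27 they numbered 445 and 207, and without pig 30 they numbered 130 and 1127, so the balance turned with single hearts. Between Groups 3 and 2 it was 0 of 5 against 7.22% of all genes (2.57% higher and 4.65% lower in Group 3, 303 and 548 genes, or 683 and 773 after that scaling and 568 and 277 without pig 31). Between Groups 1 and 3 it was 1 of 5, TSC22D3, against 6.01% of all genes (2.78% higher and 3.23% lower in Group 1, 327 and 381 genes, or 718 and 646 after that scaling, 759 and 228 without pig 27, 379 and 202 without pig 34, and 201 and 831 without pig 31), and over the 3 groups 0 of 5 against 6.26%. No member separated 2 groups without overlap, which 9.82% of all genes did between Groups 1 and 2, 14.7% between Groups 3 and 2 and 7.48% between Groups 1 and 3. The exact permutation test over the 3 groups gave p = 0.586 for NR3C1, 0.986 for SGK1, 0.779 for FKBP5 and 0.371 for ZBTB16, and 3 hearts against 3 cannot give a p under 0.1.

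**Figure D2:**
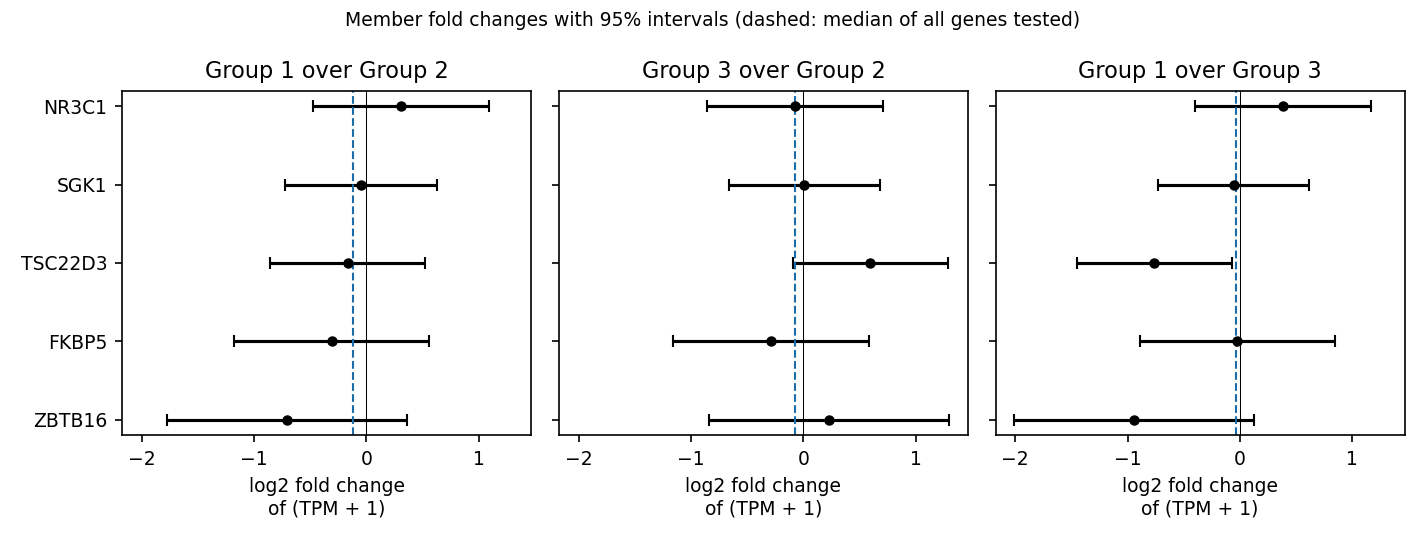
Difference between groups for each measured member on the log2(TPM + 1) scale (horizontal axes), with 95% intervals from limma over all 9 hearts. The dashed line is the median of the 11782 genes tested. Of the 15 intervals, 1 does not cross 0, that of TSC22D3 in Group 1 over Group 3, from -1.45 to -0.07.

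TPM of a gene also depend on what else fills the library. The 13 mitochondrially encoded protein genes took 38.2% of all TPM in pig 30, the lowest heart, and 55.3% in pig 27, the highest. Their share averaged 49.4%, 50.2% and 49.6% in Groups 1, 2 and 3. Members were low where the share was high, with r = -0.71 for NR3C1, -0.66 for SGK1, -0.68 for FKBP5, -0.56 for TSC22D3 and -0.25 for ZBTB16 across 9 hearts, on log2(TPM + 1). Over these 5 relations the adjusted exact permutation p was 0.0883 for NR3C1, SGK1 and FKBP5, 0.151 for TSC22D3 and 0.488 for ZBTB16. Spearman's rho was -0.73 for NR3C1, FKBP5 and TSC22D3, -0.77 for SGK1 and -0.18 for ZBTB16, with an adjusted exact permutation p of 0.0389 for the first 4 and 0.644 for ZBTB16. Without pigs 27 and 30, the hearts farthest from the median share, r was -0.42 for NR3C1, -0.38 for SGK1, -0.60 for FKBP5, -0.72 for TSC22D3 and -0.84 for ZBTB16. The relation of NR3C1 and SGK1 thus rested largely on those hearts. Shares of one total are not independent of each other, and the relations are given as a property of the libraries.

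**Figure D3:**
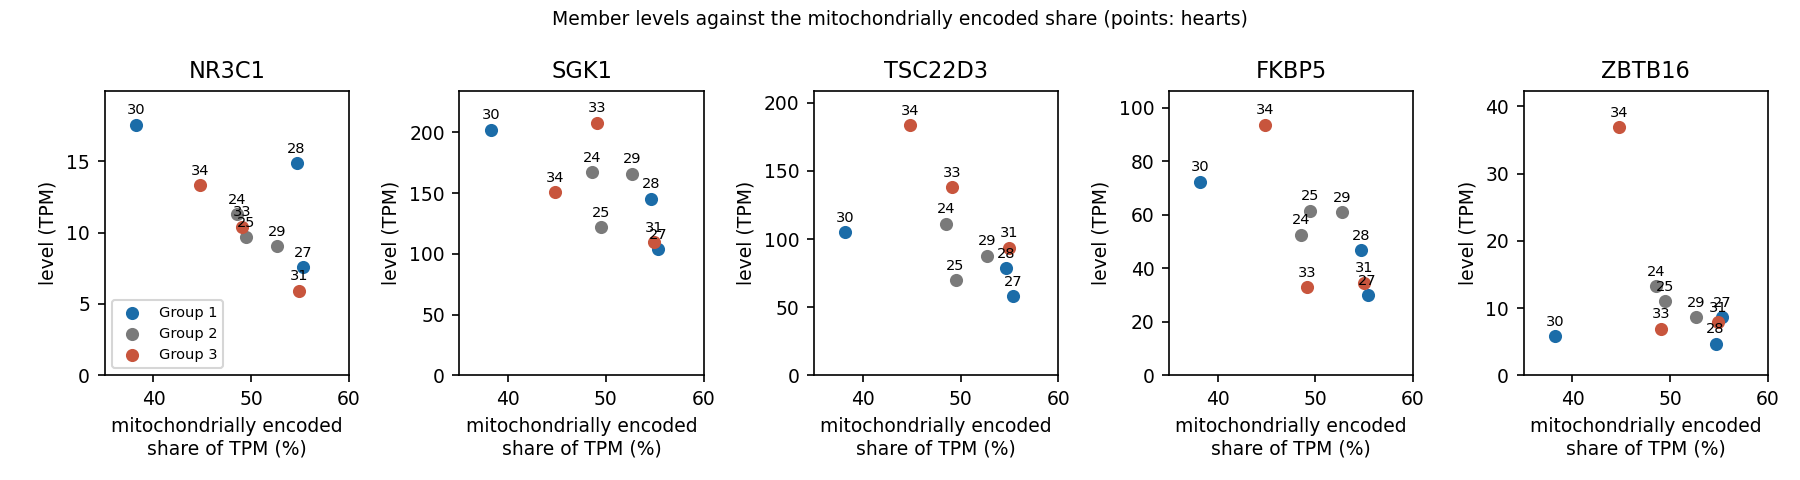
Level of each measured member (vertical axes, TPM from 0) against the share of TPM from the 13 mitochondrially encoded protein genes (horizontal axes, %). Points are hearts labelled by pig number and coloured by group. Pig 30 has the lowest share, 38.2%, and the highest NR3C1 level, 17.6 TPM.

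Another scaling changed the values of TSC22D3. After median-of-ratios scaling, which moved the median of all genes between Groups 1 and 2 from -0.12 to 0.00, TSC22D3 was 0.70 log2 units higher in Group 3 than in Group 2 (limma, unadjusted p = 0.00457, adjusted p = 0.209) and -0.72 in Group 1 relative to Group 3 (unadjusted p = 0.00382, adjusted p = 0.223). The exact permutation test of TSC22D3 over the 3 groups then gave an unadjusted p of 0.0321. The same test gave an unadjusted p of 0.0571 without the mitochondrially encoded genes. With TPM as deposited it gave 0.139, or 0.696 adjusted over the members. With median-of-ratios scaling, 12.4% and 11.7% of all genes passed an unadjusted limma p under 0.05 in Groups 3 over 2 and 1 over 3. The adjusted limma p of TSC22D3 stayed above 0.05 in both comparisons.

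Dividing each target by NR3C1 in the same heart removes the scale of the library altogether. This was done after the values had been seen. TSC22D3 per NR3C1 was 7.68, 5.29 and 5.98 in Group 1, 9.85, 7.19 and 9.69 in Group 2, and 15.8, 13.3 and 13.8 in Group 3. All 3 hearts of Group 3 lay above all 6 others, with a mean ratio of 14.3 ± 1.32 against 8.91 ± 1.49 in Group 2 and 6.31 ± 1.23 in Group 1 (SD, n = 3 each). Pig 31 had the highest ratio with the lowest NR3C1 of the 9 hearts, 5.94 TPM. Its TSC22D3, 93.6 TPM, lay inside the range of both other groups, so its place above them came from NR3C1. The exact permutation test of the log2 ratio over the 3 groups gave p = 0.00714, unadjusted. Such ratios separated the groups for many genes. Of all genes above 0 in every heart, 16.1% had an exact p under 0.05, 14% of genes tested did not overlap between Groups 3 and 2, 22.1% did not between Groups 3 and 1, and for 4.04%, as for TSC22D3, all 3 hearts of Group 3 lay above the other 6.

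The other targets per NR3C1 were less ordered. SGK1 per NR3C1 ranged from 9.78 to 13.7 in Group 1, from 12.6 to 18.3 in Group 2 and from 11.3 to 20.0 in Group 3. FKBP5 per NR3C1 was 3.15 to 4.12 in Group 1, below all of Group 2 at 4.65 to 6.72, and 3.16 to 7.01 in Group 3. Such a separation of Groups 1 and 2 was found for 27.9% of genes tested. ZBTB16 per NR3C1 was 0.316 to 1.15 in Group 1, 0.950 to 1.17 in Group 2 and 0.665 to 2.77 in Group 3. Their exact permutation p over the 3 groups was 0.261, 0.225 and 0.161, unadjusted.

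**Figure D4:**
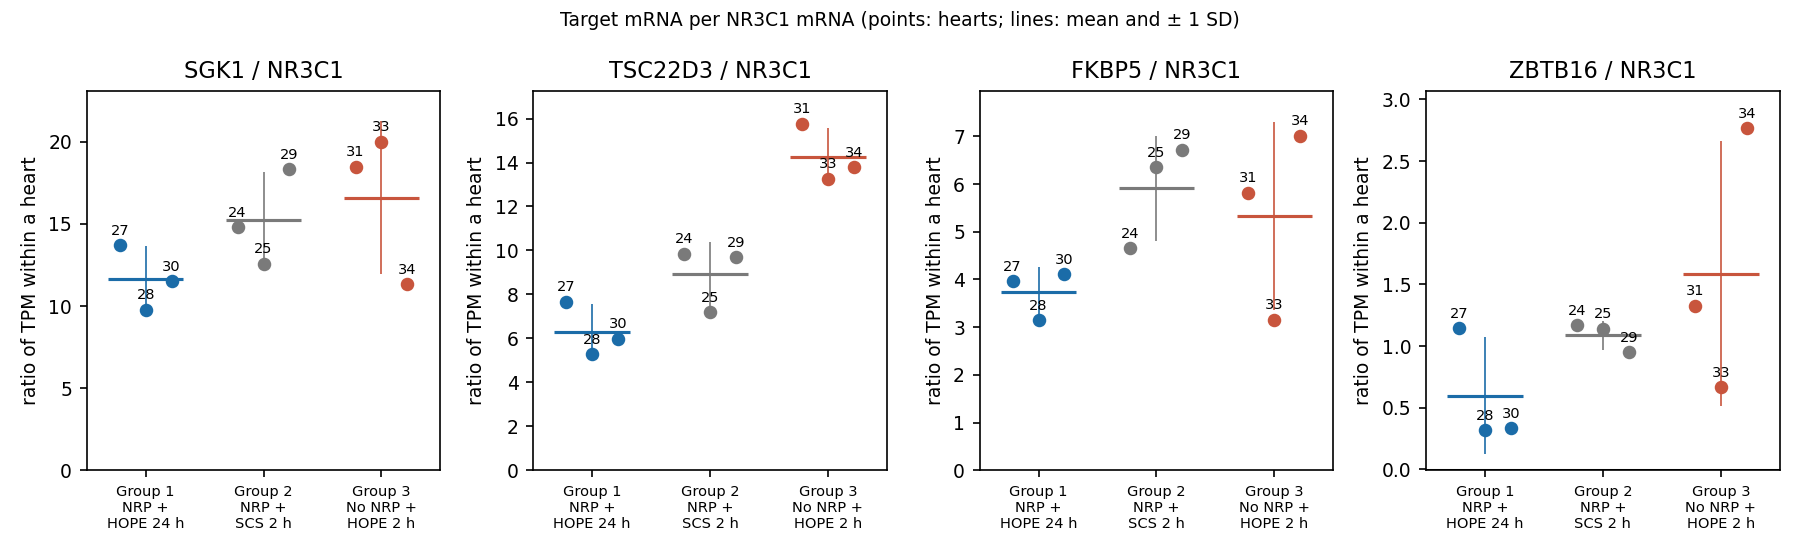
Ratio of each target's TPM to that of NR3C1 in the same heart (vertical axes, from 0), by group. Points are hearts labelled by pig number, lines are the mean of 3 hearts and ± 1 SD. For TSC22D3 the 3 hearts of Group 3 lie at 13.3 to 15.8 and the other 6 at 5.29 to 9.85.

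Across the 9 hearts, the 5 members formed 10 pairs. The closest pair by r of the levels was NR3C1 and SGK1, with r = 0.67 (exact permutation p = 0.0494) and rho = 0.58 (exact permutation p = 0.108). With the levels of 10 pairs compared, the adjusted p of r was 0.241, and without pigs 30 and 31, the farthest in NR3C1, r was 0.37. NR3C1 and FKBP5 had r = 0.63 (exact permutation p = 0.0702, adjusted 0.241) and rho = 0.55 (exact permutation p = 0.133, adjusted 0.443), and r = 0.47 without pigs 30 and 31. The closest pair by rho was SGK1 and TSC22D3, with rho = 0.70 (exact permutation p = 0.0433, adjusted 0.433) and r = 0.60 (exact permutation p = 0.0842, adjusted 0.241), and r = 0.31 without pigs 27 and 33. TSC22D3 and ZBTB16 had r = 0.56 (exact permutation p = 0.120, adjusted 0.241) and rho = 0.18 (exact permutation p = 0.644, adjusted 0.644), and r = -0.03 without pigs 27 and 34. The relation of these targets rested on the heart of pig 34. The order of the pairs was not stable. Without the mitochondrially encoded genes r was 0.51 for TSC22D3 and ZBTB16 and 0.46 for NR3C1 and SGK1, and with group means removed the highest r was 0.90, for NR3C1 and TSC22D3. No pair passed an adjusted p under 0.05 by r, where the smallest was 0.241, or by rho, where it was 0.433.

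The genes around the receptor were described from 8 lists of 143 genes, of which 82 were tested. At an adjusted p under 0.05, 0 were called in any of the 3 comparisons, while limma with array weights on the same 9 hearts called 6 of them, CXCL2, CXCL8, HBEGF and TNFAIP3 in Group 1 over Group 2 and LPIN1 and PDK4 in Group 3 over Group 2, with adjusted p from 0.00931 for LPIN1 to 0.0487 for HBEGF. The receptor's chaperones and cochaperones, which hold it ready for cortisol, were all tested, 13 of 13, and 0 passed an unadjusted p under 0.05 in any comparison. Their median log2 difference was -0.04 for Group 1 over Group 2, -0.09 for Group 3 over Group 2 and 0.03 for Group 1 over Group 3, beside medians of -0.12, -0.07 and -0.03 for all genes tested. HSP90AA1, the chaperone at the core of the complex, ranged from 462 to 754 TPM in Group 1 and from 389 to 524 TPM in Group 2 (log2 difference 0.30, unadjusted p = 0.236). Of 10 coregulators tested, NRIP1, a corepressor of nuclear receptors, was higher in Group 1 than in Group 3 by 0.83 (unadjusted p = 0.0333, adjusted p = 0.795), and no other passed. Without pig 28, 30, 31 or 33 its unadjusted p was 0.0614 to 0.106, with a difference of 0.63 to 0.85. Of 14 genes of steroid metabolism and transport, 3 were tested and 0 passed. CYP11A1, which begins steroid synthesis, and CYP17A1 were listed at 0 in every heart. CYP21A2, from the same list, was among those tested and ranged from 0.735 to 1.99 TPM over the 9 hearts.

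Of 42 other glucocorticoid-induced genes, 24 were tested. Between Groups 1 and 2, 2 were higher and 2 lower in Group 1 at an unadjusted p under 0.05, with a median of -0.06. Between Groups 3 and 2, 1 was higher and 2 lower in Group 3 (median -0.08), and between Groups 1 and 3, 4 were higher and 2 lower in Group 1 (median 0.14). These differences went in both directions. Of all genes tested, 1.82% were higher and 3.14% lower in Group 1 than in Group 2 at that threshold. The shares were 2.57% and 4.65% for Group 3 against Group 2, and 2.78% and 3.23% for Group 1 against Group 3. Without pig 28 none was lower in Group 1 than in Group 2, and without pig 27 5 were higher. Over all genes tested, 217 were lower without pig 28 and 445 higher without pig 27. Without pig 34 none was higher and 5 were lower in Group 3 than in Group 2, beside 198 and 629 of all genes.

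PER1, a clock gene and rapid receptor target, measured 50.6, 32.6 and 43.7 TPM in Group 1, 91.3, 63.5 and 88.3 TPM in Group 2, and 85.9, 76.4 and 151 TPM in Group 3. Every heart of Group 1 lay below every other heart. PER1 was named for its p in these same hearts, so this separation adds no support. Of all genes tested, 9.82% did not overlap between Groups 1 and 2 and 7.48% between Groups 1 and 3. The log2 difference was -0.93 against Group 2 (limma, unadjusted p = 0.0108, adjusted p = 0.790) and -1.24 against Group 3 (unadjusted p = 0.00151, adjusted p = 0.300). FBXO32, a ubiquitin ligase of muscle protein breakdown, ranged from 39.6 to 64.2 TPM in Group 1 and from 92.0 to 112 TPM in Group 2 (-0.90, unadjusted p = 0.0222, adjusted p = 0.933). ANXA1, which encodes the anti-inflammatory protein annexin A1, was lower in Group 1 than in Group 3 by a log2 difference of -0.81 (unadjusted p = 0.0239, adjusted p = 0.751). Without pig 28, PER1 was -0.75 against Group 2 (unadjusted p = 0.0520) and FBXO32 -0.69 (0.0973), and FBXO32 was -0.82 (0.0670) without pig 25. ANXA1 was -0.53 (unadjusted p = 0.112) without pig 27, -0.62 (0.105) without pig 33 and -0.75 (0.0643) without pig 34.

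Other listed genes went the opposite way. They too were named for their p, so their separation between groups adds no support. Of all genes tested, 9.82% did not overlap between Groups 1 and 2, 14.7% between Groups 3 and 2 and 7.48% between Groups 1 and 3. TNFAIP3, which encodes the NF-kB inhibitor A20 and is itself induced by NF-kB, measured 28.7, 57.0 and 42.9 TPM in Group 1, 15.6, 9.58 and 9.38 TPM in Group 2, and 4.94, 13.9 and 11.3 TPM in Group 3. Group 1 did not overlap with the others, and its log2 difference was 1.79 against Group 2 (adjusted p = 0.199) and 2.04 against Group 3 (adjusted p = 0.140). ANGPTL4, a lipoprotein lipase inhibitor also induced by hypoxia, measured 232, 184 and 244 TPM in Group 1, 107, 93.2 and 34.3 TPM in Group 2, and 127, 126 and 123 TPM in Group 3. Here the groups were in 3 separate ranges, with log2 differences of 1.63 for Group 1 over Group 2 (adjusted p = 0.208), 0.83 for Group 3 over Group 2 (unadjusted p = 0.0373, adjusted p = 0.663) and 0.79 for Group 1 over Group 3 (unadjusted p = 0.0455, adjusted p = 0.826). The last of these was 0.72 to 0.80 without pig 27, 30, 31, 33 or 34, about as large as with all hearts, but with an unadjusted p of 0.0737 to 0.110. Group 3 over Group 2 was 0.33 (unadjusted p = 0.286) without pig 29, and 0.82 to 0.85, again about as large, without pig 31, 33 or 34 (unadjusted p of 0.0617 to 0.0691).

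LPIN1 and PDK4 were lower in Group 3 than in both other groups at an unadjusted p under 0.05. LPIN1, which encodes an enzyme of triglyceride synthesis that also acts as a transcriptional coactivator, measured 6.20, 8.50 and 13.6 TPM in Group 3, against 24.1 to 55.2 TPM in Group 2 and 18.0 to 45.5 TPM in Group 1. The log2 difference was -2.09 against Group 2 (adjusted p = 0.118), and Group 1 was 1.41 higher than Group 3 (adjusted p = 0.443). The difference from Group 2 had an adjusted p of 0.0487 with median-of-ratios scaling and 0.0494 without the mitochondrially encoded genes. PDK4, the kinase that turns pyruvate dehydrogenase off, ranged from 101 to 208 TPM in Group 3 and from 314 to 379 TPM in Group 2 (-1.11, adjusted p = 0.392), and from 198 to 377 TPM in Group 1 (0.81 for Group 1 over Group 3, adjusted p = 0.739). That last difference was 0.58 (unadjusted p = 0.107) without pig 28 and 0.51 (0.127) without pig 33.

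Inflammatory genes that glucocorticoids hold back gave the largest list median. Of 16 such genes 9 were tested, and 5 were higher in Group 1 than in Group 2 at an unadjusted p under 0.05, with 0 lower and a median log2 difference of 0.95 beside -0.12 for all genes tested. At that threshold 1.82% of all genes were higher and 3.14% lower, and the list was written with earlier results of these data known. The median of the list was 0.62 over 12 genes with no filter on low values and 1.498 over 6 genes with a mean of at least 5 TPM. CXCL2, a neutrophil chemokine, ranged from 202 to 1468 TPM in Group 1 and from 50.1 to 185 TPM in Group 2 (log2 difference 2.50, adjusted p = 0.358), and CXCL8, another, from 10.8 to 74.2 against 2.90 to 6.67 TPM (2.48, adjusted p = 0.344). PTGS2 (cyclooxygenase of prostaglandin synthesis), IL1A and CCL2 were the others, with log2 differences of 2.04, 1.58 and 0.95. Against Group 3, 6 were higher and 0 lower in Group 1, these 5 and VCAM1, an adhesion molecule of vessel walls, and the median was 1.32, or 0.79 with no filter. Of all genes tested, 2.78% were higher and 3.23% lower in Group 1 than in Group 3. Without pig 28 or pig 31 the list median was 0.87 or 0.86, and without pig 28, 31 or 34 4 listed genes passed. Of all genes, 256, 201 and 379 were higher and 229, 831 and 202 lower without these hearts in turn. Between Groups 3 and 2 the median was 0.00, and VCAM1 was lower in Group 3 (-0.95, unadjusted p = 0.0273, adjusted p = 0.622). That difference was -0.49 (unadjusted p = 0.168) without pig 31, -0.86 (0.0750) without pig 25, -0.93 (0.0544) without pig 33 and -1.43 (0.000861) without pig 34. The 6 endothelial markers listed summed to 229 to 483 TPM in Group 3, 440 to 478 TPM in Group 2 and 217 to 470 TPM in Group 1, and their part in it was not tested. CXCL8 in Group 1 over Group 3 was 0.87 (unadjusted p = 0.142) without pig 28 and missed the threshold also without pig 31 (1.21, 0.0879) or 34 (1.38, 0.0603), and CCL2 was 0.60 (unadjusted p = 0.0862), 0.75 (0.0602) and 0.76 (0.0569) without the same hearts. In Group 1 over Group 2, CCL2 was 0.65 (unadjusted p = 0.0672) without pig 28 and 0.69 (0.0645) without pig 29. Without pig 28, PTGS2 in Group 1 over Group 3 was 1.29, and without pig 31 VCAM1 was 0.86. The neutrophil marker CSF3R was listed at 0 in every heart, and the summed level of the 3 neutrophil markers listed was 0.357 to 3.89 TPM in Group 1, 2.02 to 13.2 TPM in Group 2 and 0 to 0.343 TPM in Group 3.

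The remaining lists lie around single members. Of 11 aldosterone-responsive sodium transport genes, which SGK1 acts on, 7 were tested. USP2 was lower in Group 1 than in Group 2 (-0.72, unadjusted p = 0.0297, adjusted p = 0.943), and ATP1B1, a subunit of the sodium pump, was higher in Group 1 than in Group 3 (0.79, unadjusted p = 0.0342, adjusted p = 0.800). USP2 was -0.70 to -0.59 without pig 25, 28 or 29, close to its value with all hearts, with an unadjusted p of 0.0763 to 0.112. ATP1B1 was 0.51 (0.136) without pig 30 and 0.70 to 0.74 (0.0809 to 0.0972) without pig 28, 31 or 33. Of 12 ErbB receptors and ligands, the pathway that the protein of ERRFI1 inhibits, 3 were tested. HBEGF, a ligand of the family, measured 53.3, 161 and 141 TPM in Group 1, with 33.0 to 47.0 TPM in Group 2 and 31.0 to 47.9 TPM in Group 3. Its hearts in Group 1 lay above all others (log2 difference 1.43 against Group 2, adjusted p = 0.419, and 1.52 against Group 3, adjusted p = 0.300). Without pig 27, these differences were 1.92 (adjusted p = 0.0414) and 2.02 (adjusted p = 0.0401). HBEGF was named for its p in these same hearts, so its separation adds no support. Of all genes, 9.82% did not overlap between Groups 1 and 2 and 7.48% between Groups 1 and 3. Of 24 paralogs of the members 14 were tested, and FKBP11, an FKBP of the endoplasmic reticulum, was lower in Group 1, at 12.4 to 13.2 TPM, than in Group 2, at 20.1 to 32.2 TPM (-0.96, unadjusted p = 0.00366, adjusted p = 0.507).

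Over the 8 lists together, 8 genes were higher and 4 lower at an unadjusted p under 0.05 in Group 1 against Group 2, which is 14.6% of the 82 tested where 4.97% of all genes passed. In Group 3 against Group 2, 1 was higher and 3 lower, 4.88% beside 7.22% of all genes. In Group 1 against Group 3, 13 were higher and 2 lower, 18.3% beside 6.01%. The 3 comparisons share hearts, and the lists were written with earlier results of these data known. Single hearts moved these counts. Without pig 30, 9 were higher and 11 lower in Group 1 than in Group 2, without pig 28 7 and 1, and without pig 27 13 and 4. Over all genes tested these numbers were 130 higher and 1127 lower without pig 30, 161 and 217 without pig 28 and 445 and 207 without pig 27, where all hearts gave 215 and 370. Without pig 34, 0 were higher and 8 lower in Group 3 than in Group 2, beside 198 and 629 of all genes. In Group 1 against Group 3, 8 were higher and 3 lower without pig 31, beside 201 and 831 of all genes.

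**Figure D5:**
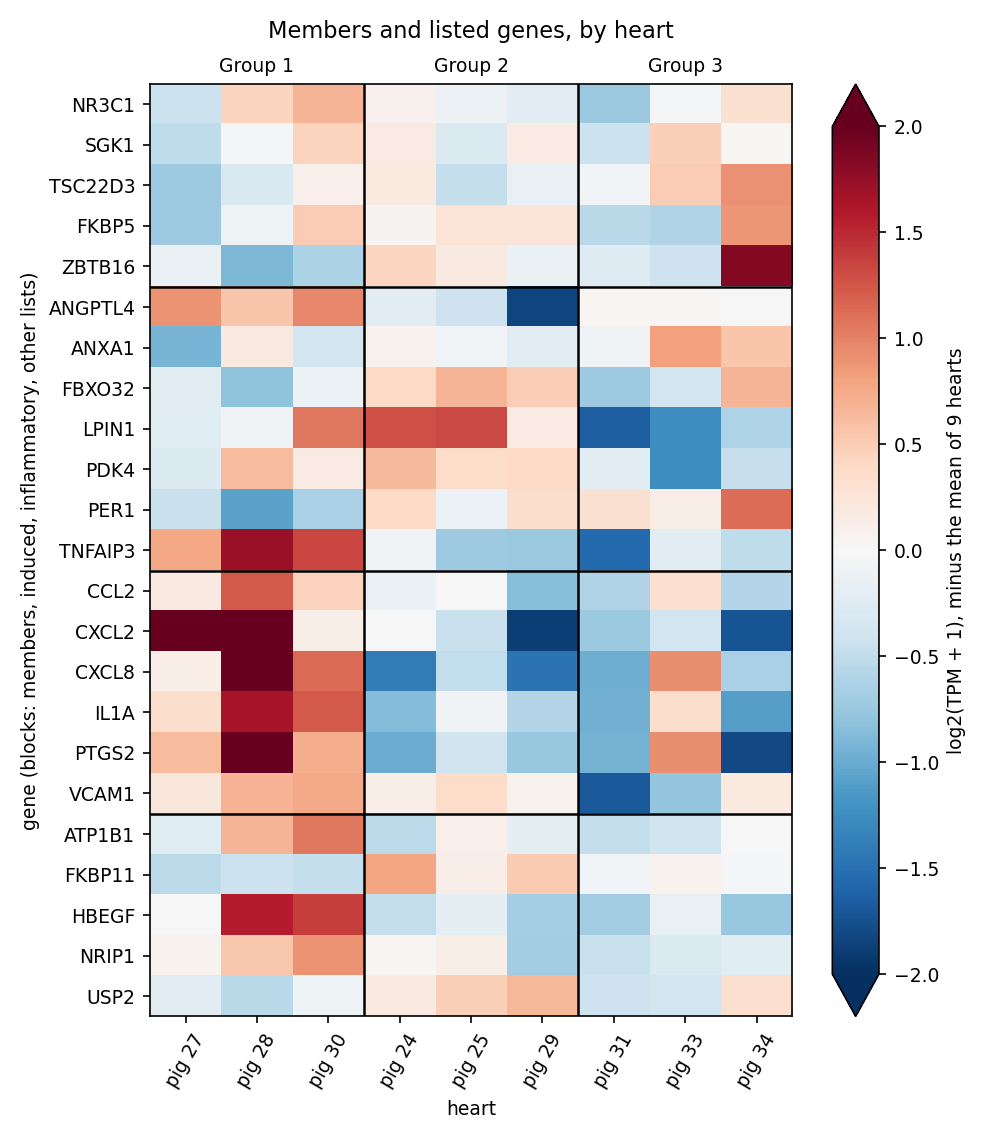
Levels in each heart (columns, by group) of the 5 measured members and of every listed gene with an unadjusted limma p under 0.05 in at least 1 comparison (rows), as log2(TPM + 1) minus the mean of the 9 hearts. Red is higher and blue lower, and values beyond 2 are drawn at the end of the scale. The listed genes were picked by that p. PER1 is below the mean in the 3 hearts of Group 1, while TNFAIP3 and ANGPTL4 are above it.

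Likeness across hearts was described by r of log2(TPM + 1) over the 9 hearts among 8196 genes, with no test. The genes most like NR3C1 were ZMIZ1, ATP6V1C1 and TET2 (r = 0.98, 0.98 and 0.97). For SGK1 they were ZNF79, CNOT11 and YWHAB (0.96, 0.96 and 0.95), and for FKBP5 they were CAMK2D, LMBRD2 and ORMDL2 (0.99, 0.98 and 0.97). TSC22D3 was most like FUT8, CDH24 and TRPV2 (0.97, 0.96 and 0.95). EGR1 and DEPP1 were among the genes most like ZBTB16 (0.95 and 0.94). ZBTB16, EGR1 and DEPP1 were each highest in pig 34, at 36.9, 340 and 398 TPM. FKBP5, TSC22D3 and the genes named for them were also highest in pig 34, and likeness without that heart was not tested. DEPP1, a gene regulated by FOXO transcription factors, had 19.8 TPM in its lowest heart. These are the highest of many values over 9 hearts, and how high chance alone would reach was not tested.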

How the data were processed

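Per the submitters' processing notes, reads of oligo(dT)-enriched myocardial RNA were trimmed with Trimmomatic 0.36, mapped with STAR 2.5.2b and counted with featureCounts (Subread 1.5.2). The genome build is not given in the sources used here. The authors deposited TPM values, 1 column per heart, each summing to 1000000. The table has 9 more columns, whose names match none of the labels, and these were left aside. Read counts were not used here, so sequencing depth is unknown and the spread between hearts, each from its own pig, gives the precision. Groups came from the labels, and rows were matched by gene symbol.

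limma 3.58.1 (R 4.3.3) was fitted to log2(TPM + 1) with 1 mean per group and a variance trend, over 11782 genes that reached 1 TPM in 3 hearts or more. Tests were two-sided, with Benjamini-Hochberg adjustment over all genes tested, and the fit was tested on simulated data. A fold change on this scale understates the change of low genes. Permutation tests were exact and two-sided (Python 3.11.15, numpy 2.4.6). Members and gene lists were chosen with earlier results of these data known. The members were named, as were listed genes at an unadjusted p under 0.05 or, up to 2 per list and comparison, with the largest other differences, and the 3 genes most like each member, of which 1 is not reported here. HSD11B2, CYP11A1 and CYP17A1 were named outside this rule, after their values were seen. Alternatives changed the pseudocount (0.1), the filter (none, or a mean of at least 5 TPM), the scaling (median of ratios, or TPM rebuilt without mitochondrially encoded genes) and the fit (the 6 hearts compared, no variance trend, array weights, or each heart left out in turn). Ratios to NR3C1 and the alternatives for listed genes were added after seeing the data. No sequences were used here.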

Additional observations from a re-analysis of the deposited data

How the results depend on the processing

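No paired analysis was possible because each pig gave 1 heart to 1 group and the groups share no pig number. No member was called at an adjusted p under 0.05 under any alternative run. At an unadjusted p, members numbered 1 in place of 0 between Groups 3 and 2, and also over the 3 groups, with median-of-ratios scaling, without the mitochondrially encoded genes and with array weights, each time TSC22D3. The share of all genes there was 12.4%, 11.1% and 15.8% between Groups 3 and 2 and 12.1%, 10.3% and 19.3% over the 3 groups. Between Groups 1 and 3, fitting only the 6 hearts compared left 0 in place of 1. Members without overlap numbered 1 in place of 0 between Groups 3 and 2, and between Groups 1 and 3, with median-of-ratios scaling, and in the latter also without the mitochondrially encoded genes, where 18.0%, 16.3% and 12.5% of all genes did not overlap. Leaving out 1 heart at a time gave 0 to 1 members at an unadjusted p between Groups 1 and 2, between Groups 3 and 2 and over the 3 groups, 0 to 2 between Groups 1 and 3, and 0 to 2 without overlap in each pair. Over all genes tested, leaving out 1 heart gave 378 to 1257, 485 to 1111, 551 to 1222 and 485 to 1118 at an unadjusted p in Groups 1 over 2, in 3 over 2, over the 3 groups and in 1 over 3, and 13.5% to 37.3%, 20.4% to 28.2% and 10.7% to 24.8% without overlap in Groups 1 and 2, 3 and 2, and 1 and 3. Of all genes tested, those called at an adjusted p numbered 3, 6 and 6 in Groups 1 over 2, 3 over 2 and 1 over 3, and 12 over the 3 groups. They numbered 60, 96, 14 and 124 with array weights, 4, 19, 3 and 8 with median-of-ratios scaling, 2, 20, 2 and 4 without the mitochondrially encoded genes, 0, 6, 3 and 1 with a pseudocount of 0.1, 1, 1, 4 and 4 with no filter, 6, 8, 4 and 15 with a mean of at least 5 TPM, and 13, 3 and 7 with only the 6 hearts compared. At an unadjusted p the alternatives gave 330 to 1812, 532 to 1864, 411 to 1869 and 460 to 2276 genes. Leaving out 1 heart gave 0 to 12, 1 to 13, 0 to 16 and 1 to 17 adjusted calls. With array weights 6 adjusted calls fell on listed genes, CXCL2, CXCL8, HBEGF and TNFAIP3 in Group 1 over Group 2 and LPIN1 and PDK4 in Group 3 over Group 2.

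Counting members at an adjusted p and listed genes at an unadjusted p under 0.05, 710 log2 differences under an alternative kept their sign and their side of the threshold, 47 no longer passed it, all of listed genes and most often ANGPTL4, and 22 changed sign, all of members. The sign changed with median-of-ratios scaling for SGK1 in Group 1 over Group 2 (0.10), NR3C1 in Group 3 over Group 2 (0.013) and FKBP5 in Group 1 over Group 3 (0.022), with array weights for NR3C1 (0.021) and ZBTB16 (-0.18) in Group 3 over Group 2 and FKBP5 in Group 1 over Group 3 (0.17), and without the mitochondrially encoded genes for SGK1 in Group 3 over Group 2 (-0.0058). Leaving out 1 heart, the range in Group 1 over Group 2 was -0.29 to 0.19 for SGK1, -0.62 to 5.88e-05 for FKBP5 and -0.38 to 0.046 for TSC22D3. In Group 3 over Group 2 it was -0.30 to 0.22 for NR3C1, -0.22 to 0.24 for SGK1 and -0.49 to 0.64 for ZBTB16, and in Group 1 over Group 3 it was -0.30 to 0.18 for SGK1 and -0.33 to 0.46 for FKBP5. Correlations between members changed sign with median-of-ratios scaling for NR3C1 and TSC22D3 (-0.12), NR3C1 and ZBTB16 (-0.29), SGK1 and FKBP5 (-0.69) and FKBP5 and TSC22D3 (-0.00736), without the mitochondrially encoded genes for NR3C1 and ZBTB16 (-0.20) and SGK1 and FKBP5 (-0.026), and with a pseudocount of 0.1 for NR3C1 and ZBTB16 (-0.0018). Leaving out 1 heart, r ranged from -0.45 to 0.23 for NR3C1 and ZBTB16, from -0.25 to 0.038 for SGK1 and ZBTB16 and from -0.081 to 0.70 for TSC22D3 and ZBTB16. The cause of these changes was not tested.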
